A study of Mus musculus with 9 samples.

Results

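Glutathione transferases and aldehyde dehydrogenases were followed in the conjunctiva of mice, a thin mucosa that extends from the inner eyelid onto the sclera. The members were all rows of the count table whose symbol begins with Gst and a class letter (a, k, m, o, p, t or z), Mgst and a digit, or Aldh and a digit. They came to 46 of 20603 genes: 22 soluble glutathione transferases, 3 membrane transferases and 21 aldehyde dehydrogenases. Of these, 44 had enough counts to be tested, and Gstm3 and Aldh8a1 did not. Messenger RNA was sequenced in 9 libraries, each from the pooled conjunctiva of 3 C57BL/6J mice, in 3 groups of 3 pools.

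Challenged Vegfr3iLECko mice carried floxed Vegfr3 alleles (Vegfr3 fl/fl) and Prox1CreERT2, a tamoxifen-inducible Cre recombinase that is active in Prox1-expressing cells, chiefly lymphatic endothelium. Challenged Ctrl and Unchallenged Ctrl mice were Vegfr3 fl/fl littermates. Every group received tamoxifen, 75 mg/kg intraperitoneally on 5 occasions in week 5. Every group was also immunized in week 6, with ovalbumin (250 µg), pertussis toxin (0.3 µg) and the adjuvant aluminum hydroxide (5 mg). From 14 days later, challenge was a daily drop of 250 µg of ovalbumin in 5 µL on the right eye for 28 days, with saline on the other eye. The labels do not say which eye or which animals gave the unchallenged pools. The pools of a group came from replicate experiments, and each p-value rests on the spread between pools rather than between single mice.

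Soluble glutathione transferases join glutathione, a small cysteine-containing peptide, to reactive electrophiles such as products of lipid peroxidation. Membrane transferases (Mgst) sit in the endoplasmic reticulum and mitochondrial membranes and also reduce lipid hydroperoxides. Aldehyde dehydrogenases oxidise aldehydes to acids: some clear toxic aldehydes, the Aldh1a enzymes make retinoic acid from retinal, and others serve amino acid or folate metabolism. Aldh3a1 is known as a very abundant soluble protein of the corneal epithelium. Transcription factor NRF2 acts on many of these genes through a DNA element called the antioxidant response element.

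The sequences printed here are the start regions of the most abundant member, Gsto1, and of Aldh1a1, the member with the lowest adjusted p in the comparison of challenge. Each runs from 250 bases before to 50 bases after the annotated start, on the gene's own strand, in RefSeq (build GRCm38.p6). Capitals mark the AP-1 heptamer TGANTCA or the antioxidant response element core TGACNNNGC, searched on both strands. Gsto1 lay at chr19:47854723-47855022 (plus strand) and held neither. Aldh1a1 had entries for both of its starts, at chr19:20492333-20492632 and chr19:20601718-20602017 (plus strand), and the first held an AP-1 heptamer 57 bases upstream of the start.
Gsto1: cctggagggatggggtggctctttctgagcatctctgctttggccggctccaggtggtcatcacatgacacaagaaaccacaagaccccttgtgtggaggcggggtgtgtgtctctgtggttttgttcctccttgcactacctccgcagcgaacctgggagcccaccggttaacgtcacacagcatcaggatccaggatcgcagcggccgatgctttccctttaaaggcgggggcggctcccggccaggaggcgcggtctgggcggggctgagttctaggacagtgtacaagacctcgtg
Aldh1a1, first start: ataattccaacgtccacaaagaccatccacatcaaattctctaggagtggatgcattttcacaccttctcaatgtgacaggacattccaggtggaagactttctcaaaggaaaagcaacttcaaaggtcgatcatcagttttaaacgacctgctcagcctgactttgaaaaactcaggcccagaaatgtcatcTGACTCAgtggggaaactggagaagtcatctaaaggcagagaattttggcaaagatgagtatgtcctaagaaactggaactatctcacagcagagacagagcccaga
Aldh1a1, second start: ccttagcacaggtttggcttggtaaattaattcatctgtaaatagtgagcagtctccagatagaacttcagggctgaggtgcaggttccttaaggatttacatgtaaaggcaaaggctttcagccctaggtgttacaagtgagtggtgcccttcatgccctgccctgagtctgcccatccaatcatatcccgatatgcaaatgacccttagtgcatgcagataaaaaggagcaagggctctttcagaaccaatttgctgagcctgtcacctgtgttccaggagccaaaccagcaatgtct

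RefSeq start regions were found for 37 of the 46 members, 48 regions in all. None was found for Gsta4, Gsta5, Gstt2, Aldh1a3, Aldh1l2, Aldh2, Aldh3a1, Aldh3b2 and Aldh7a1, so their sites were not read. The antioxidant response element core was in 6 of these 48 (12.5%), against 12.4% of 32851 start regions of the same length over all genes. The AP-1 heptamer was in 5 of 48 (10.4%), against 7.81%, and the TATA box letters TATAAA were in 6 of 48 (12.5%), against 13.6%. Within these regions the share with the element core was therefore close to that of all genes. Bases further than 250 upstream of the start were not searched. No site of the element overlapped an AP-1 site. The members that held the core are shown with 10 bases on either side, because NRF2 target genes among these families are usually described through this element. They were 112, 87, 121, 42, 129 and 56 bases upstream of the start in the order shown, and the Mgst1 site was read on the minus strand.
Aldh1a2: gccgcggactTGACCGTGCgggcgccgcg
Aldh9a1: ttaattatgcTGACTAGGCccaagctact
Gsta3: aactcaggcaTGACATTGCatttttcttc
Gstm5: caccgcccacTGACCACGCggagggcggg
Gstm7: tctgaagaccTGACAAAGCgaagccaatc
Mgst1: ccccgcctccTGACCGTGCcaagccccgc

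Gstp1 and Gstp2 carried the same AP-1 heptamer with the same 10 bases on each side, 74 bases upstream of the start in Gstp1 and 89 in Gstp2 (tccaacgtgtTGAGTCAgcatccgggg). That identity goes with the likeness of their transcripts. For each member compared, a single transcript of the GENCODE M21 annotation was set against those of all other genes. Of the stretches of 50 bases in the Gstp1 transcript, 62.3% also occurred in another gene's transcripts, most often in Gstp2. The share was 89.7% for Gsta1, 72.6% for Gstp2, 64.2% for Gsta2, 45% for Aldh4a1, 28.8% for Gstm3, 26% for Gstt3 and 24.2% for Aldh3b2. Next came Gstm1 at 23.2%, Aldh3b3 at 14.5%, Gstm6 at 11.8%, Aldh3b1 at 9.55% and Gstm2 at 9.36%. Lower shares were 7.49% for Aldh1a7, 6.54% for Aldh1a1 and 0.726% for Gstt2. Counts of these genes are uncertain as far as the counting could split or drop such reads. Gsto1, Gstk1 and Mgst1 shared no such stretch with another gene.

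Libraries held between 16490050 and 24746836 counts. Levels are given as CPM, counts scaled to a common library size with TMM factors. A floor of 3 counts equalled 0.115 to 0.186 CPM, and a count of 0 is given as 0 CPM. Flt4, the gene of VEGFR3, was at 13.0, 5.07 and 5.32 CPM in challenged Vegfr3iLECko pools 1 to 3. It was at 13.4, 20.3 and 20.1 CPM in the challenged Ctrl pools and 18.5, 26.8 and 13.5 CPM in the unchallenged Ctrl pools. Knockout pool 1 thus stood close to the lowest controls (knockout minus control under challenge, log2 fold change -1.20, SE 0.40, adjusted p = 0.468). Conjunctival keratins were abundant in every library, with Krt13 at 2127 to 4199 CPM and Krt4 at 2404 to 5080 CPM. A list of 6 corneal epithelial genes summed to 1105 to 1811 CPM: Krt12, the corneal keratin, was at 0.852 to 15.5 CPM and Slurp1 at 0 to 0.584 CPM, while Pax6 was at 223 to 437 CPM and Upk1b, Tkt and Clu were also abundant (94.6 to 650.2 CPM). A list of 10 meibomian gland genes found in the table summed to 1533 CPM in knockout pool 1 and to 63.1 to 169 CPM in the other 8 libraries.

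Gsto1 was the most abundant gene of the whole table in every library. It encodes an omega-class transferase with a catalytic cysteine that reduces dehydroascorbate and other substrates. Its level was 17941, 26042 and 23087 CPM in challenged Vegfr3iLECko pools, 16551, 21862 and 19552 CPM in challenged Ctrl pools and 19407, 17036 and 28731 CPM in unchallenged Ctrl pools. The 3 groups overlapped. Gsto1 took 1.62% to 2.77% of all counts in a library and 73.0% to 80.9% of the counts of the 46 members. The gene in second place was mt-Co1 or Krt15. Gsto2, its paralogue, was at 1.77 to 8.11 CPM.

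Per kilobase of transcript, the order of the leading members was Gsto1, Gsta4, Aldh3a1, Gsta3, Gstm1, Aldh1a3 and Mgst1. Their mean levels over the 9 libraries were 17880, 2819, 1234, 151, 133, 86.0 and 75.9 CPM per kb, with GENCODE M21 transcript lengths, which 45 of the 46 members had. Gsto1 thus stood 6.34 times above Gsta4 on this scale. Gsta4 encodes an alpha-class transferase with high activity towards hydroxynonenal, an aldehyde from lipid peroxidation, and ranked between place 10 and place 27 among all genes by count. Aldh3a1 ranked between place 10 and place 79. The members together took 2.46%, 3.23% and 3.07% of counts in challenged Vegfr3iLECko libraries, 2.10%, 2.72% and 2.5% in challenged Ctrl libraries and 2.78%, 2.35% and 3.70% in unchallenged Ctrl libraries. These shares overlapped between groups.

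**Figure D1:**
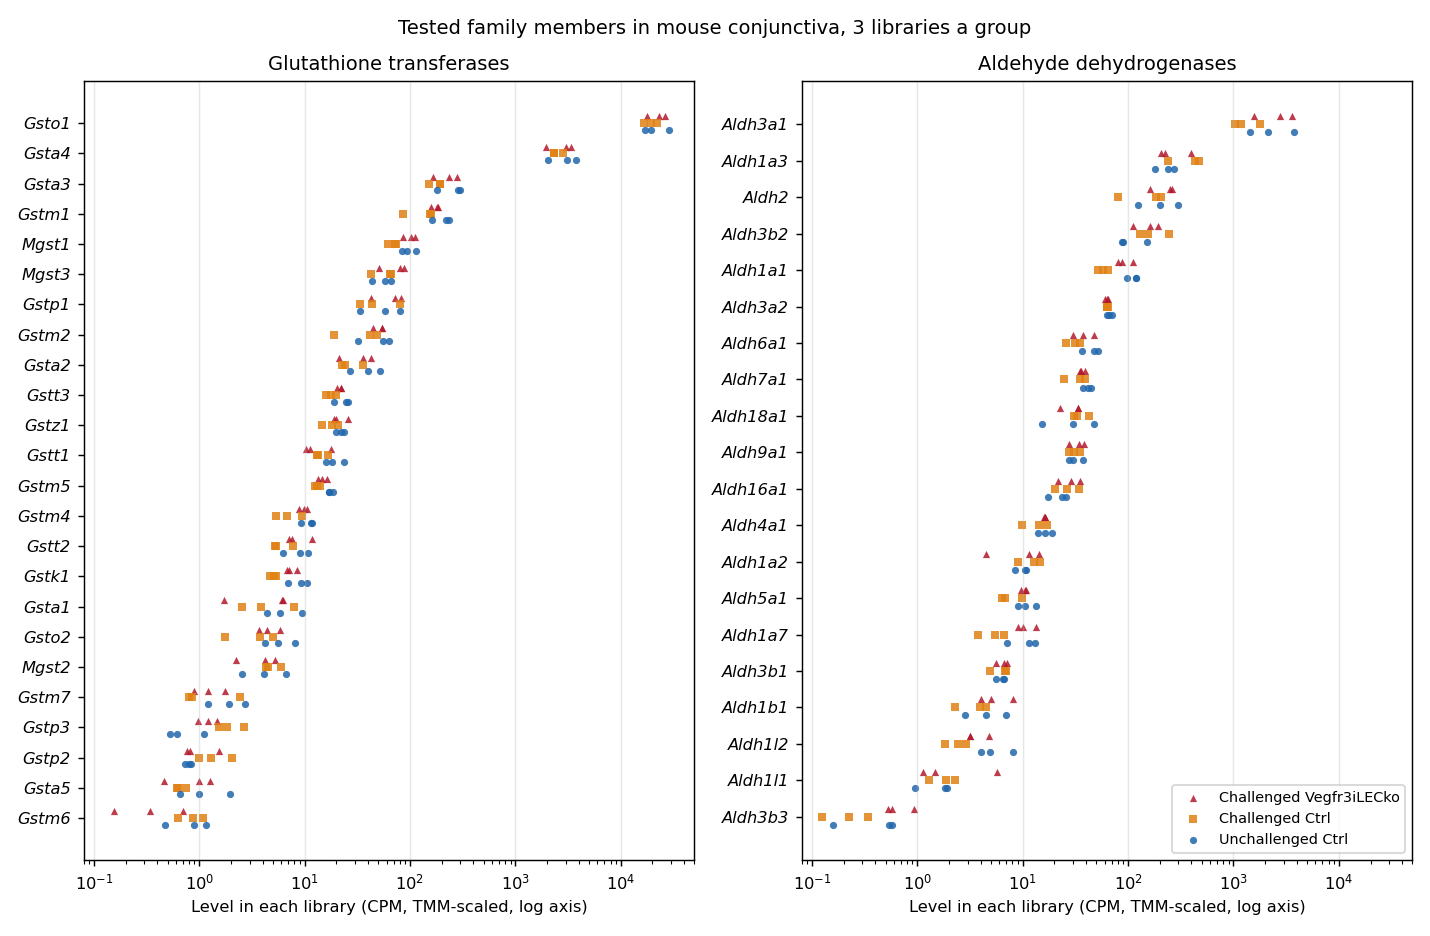
Level of each tested member in each library, in TMM-scaled CPM on a log axis, with glutathione transferases on the left and aldehyde dehydrogenases on the right; each symbol is 1 library of challenged Vegfr3iLECko, challenged Ctrl or unchallenged Ctrl mice. Gsto1 stands alone at the top at 16551 to 28731 CPM, and Aldh3b3 is the lowest aldehyde dehydrogenase at 0.124 to 0.934 CPM.

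The remaining transferases spanned a wide range. In the alpha class, Gsta3 was at 165, 235 and 280 CPM in challenged Vegfr3iLECko pools, 151, 192 and 194 CPM in challenged Ctrl pools and 284, 179 and 297 CPM in unchallenged Ctrl pools. Gsta2 ranged from 21.4 to 52.4 CPM over the 9 libraries, Gsta1 from 1.71 to 9.42 CPM and Gsta5 from 0.467 to 1.94 CPM. In the mu class, which conjugates a broad set of electrophiles, Gstm1 was at 186, 180 and 159 CPM in challenged Vegfr3iLECko pools, 86.4, 158 and 156 CPM in challenged Ctrl pools and 163, 221 and 232 CPM in unchallenged Ctrl pools. For Gstm1 every challenged Ctrl pool lay below every pool of the other groups, with challenged control 1 well under the rest. Gstm2 ranged from 18.8 to 62.8 CPM, Gstm5 from 12.4 to 18.4 CPM, Gstm4 from 5.38 to 11.7 CPM, Gstm7 from 0.804 to 2.72 CPM and Gstm6 from 0.156 to 1.15 CPM. Gstm3 had 0 to 8 counts in a library and was left out of the tests.

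The pi class was led by Gstp1, at 42.3, 71.8 and 81.8 CPM in challenged Vegfr3iLECko pools, 33.3, 43.8 and 80.0 CPM in challenged Ctrl pools and 33.3, 57.7 and 79.8 CPM in unchallenged Ctrl pools. Library 1 was the lowest and library 3 the highest in each of these groups. Gstp2 and Gstp3 were near 1 CPM. In the theta class, which acts on small haloalkanes, Gstt3 ranged from 16 to 25.8 CPM, Gstt1 from 10.2 to 23.4 CPM and Gstt2 from 5.20 to 11.8 CPM. Gstz1, the maleylacetoacetate isomerase of tyrosine breakdown, ranged from 14.5 to 25.6 CPM. Gstk1, the kappa-class enzyme of mitochondria and peroxisomes, ranged from 4.68 to 10.5 CPM. Among membrane transferases Mgst1 ranged from 62.2 to 113 CPM, Mgst3 from 42.2 to 87.5 CPM and Mgst2, which can make leukotriene C4, from 2.24 to 6.65 CPM.

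Among aldehyde dehydrogenases, Aldh3a1 was at 1569, 2777 and 3560 CPM in challenged Vegfr3iLECko pools, 1029, 1179 and 1802 CPM in challenged Ctrl pools and 2123, 1446 and 3718 CPM in unchallenged Ctrl pools. Aldh2, the mitochondrial enzyme that clears acetaldehyde, was at 161, 264 and 250 CPM in challenged Vegfr3iLECko pools, 81.0, 185 and 203 CPM in challenged Ctrl pools and 124, 203 and 300 CPM in unchallenged Ctrl pools. The groups overlapped for both genes. Aldh3a2, which oxidises long-chain fatty aldehydes, was the steadiest member at 60.4 to 71.1 CPM. Its highest library was 1.18 times its lowest, against a median of 2.45 times over the 44 tested members and 7.55 times for Aldh3b3.

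The enzymes of amino acid metabolism were at middle levels and overlapped between groups, other than Aldh6a1 with challenge. Aldh6a1, of valine breakdown, was at 37.7, 29.9 and 47.6 CPM in challenged Vegfr3iLECko pools, 34.6, 31.6 and 25.5 CPM in challenged Ctrl pools and 51.9, 47.1 and 36.3 CPM in unchallenged Ctrl pools. Aldh7a1, of lysine breakdown, ranged from 24.6 to 44.4 CPM, and Aldh18a1, which starts proline synthesis, from 15.3 to 47.7 CPM. Aldh9a1, of carnitine synthesis, ranged from 27.2 to 38.2 CPM. Aldh4a1, of proline breakdown, ranged from 9.77 to 19 CPM, and Aldh5a1, which oxidises succinic semialdehyde, from 6.37 to 13.5 CPM. Aldh16a1 ranged from 17.3 to 34.7 CPM, Aldh1b1, a mitochondrial paralogue of Aldh2, from 2.29 to 8.02 CPM and Aldh3b1 from 4.90 to 7.16 CPM. Aldh1a2, the retinal-oxidising enzyme of the embryo's mesoderm, ranged from 4.52 to 14.6 CPM. Aldh1l1, the cytosolic formyltetrahydrofolate dehydrogenase, was at 5.76 CPM in knockout pool 1 and 0.945 to 2.29 CPM elsewhere. Aldh8a1 had 3 counts in knockout pool 3, 1 in unchallenged control 2 and none in the other libraries. Knockout pool 1 also held the highest sum of meibomian gland genes given above, and the part of that tissue in its Aldh1l1 level was not tested.

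With challenge in control mice, many members were lower, but no member passed over all genes in the edgeR quasi-likelihood test. The log2 fold change was below 0 for 33 of the 44 tested members, against 51.5% of the 15613 genes tested. It was below 0 for 18 of 21 soluble transferases, 1 of 3 membrane transferases and 14 of 20 aldehyde dehydrogenases. The median log2 fold change was -0.41 over the members and -0.01 over all genes, and -0.45 over soluble transferases and -0.30 over aldehyde dehydrogenases. Without challenged control 1, which was the lowest of its group for 32 of the 44 members, the median over the members was -0.17. Of the members, 0 of 44 passed an adjusted p of 0.05 in edgeR (0.064% of all genes), and 9 were lower and 3 higher at an unadjusted p under 0.05 (5.65% and 6.77% of all genes). In 8 members every challenged pool lay below every unchallenged pool, and in 2 every challenged pool lay above (8.5% and 7.21% of all genes).

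The member with the lowest adjusted p was Aldh1a1, a main retinal-oxidising enzyme. It was at 52.0, 65.0 and 57.5 CPM in challenged Ctrl pools and 120, 97.8 and 120 CPM in unchallenged Ctrl pools. The groups did not overlap, and the level with challenge was 1.93-fold lower. The means were 58.2 ± 6.56 CPM in challenged Ctrl pools and 112 ± 12.6 CPM in unchallenged Ctrl pools (SD, n = 3 pools each). On the log2 scale the difference was -0.95 (SE 0.17, adjusted p = 0.0859). Leaving out each library in turn gave -1.05 to -0.87. Aldh1a1 did pass in the fit with the replicate number as a block (adjusted p = 0.0331), in which 1 of 44 members passed (1.71% of all genes). By DESeq2, an alternative count test, 3 of 44 members passed (4.66% of all genes): Aldh1a1 (adjusted p = 0.000325), Aldh1l2 (adjusted p = 0.0302) and Gstk1 (adjusted p = 0.0335).

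Aldh1l2, the mitochondrial formyltetrahydrofolate dehydrogenase, was at 2.91, 2.42 and 1.83 CPM in challenged Ctrl pools and 4.03, 8.12 and 4.88 CPM in unchallenged Ctrl pools. The log2 fold change by edgeR was -1.25 (SE 0.37, adjusted p = 0.181). It was -0.90 without unchallenged control 2. The groups did not overlap, with unchallenged control 2 far above the others. Gstk1 was at 5.32, 5.15 and 4.68 CPM in challenged Ctrl pools and 9.16, 10.5 and 6.98 CPM in unchallenged Ctrl pools (log2 fold change -0.81, SE 0.24, adjusted p = 0.187). The challenged pools of Gstk1 lay close together, below every unchallenged pool. Aldh1a7, a rodent paralogue of Aldh1a1, was at 3.77, 5.51 and 6.67 CPM in challenged Ctrl pools and 11.5, 7.04 and 13.1 CPM in unchallenged Ctrl pools (log2 fold change -0.98, SE 0.32, adjusted p = 0.216). Its groups did not overlap, though challenged control 3 and unchallenged control 2 were close.

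Mgst1 was at 62.2, 74.3 and 72.2 CPM in challenged Ctrl pools and 113, 83.4 and 92.9 CPM in unchallenged Ctrl pools (log2 fold change -0.47, SE 0.16, adjusted p = 0.250). All challenged pools were below all unchallenged ones. The other members with every challenged pool lower were Gstm1, Gstm5 and Aldh6a1. Gstm5 was at 12.4, 13.8 and 13.2 CPM in challenged Ctrl pools and 18.4, 17.1 and 17.2 CPM in unchallenged Ctrl pools. Aldh3a1 had a log2 fold change of -0.86 (SE 0.40, adjusted p = 0.436), which was -0.41 without unchallenged control 3, and its groups overlapped. Gsto1 and Gsta4, the most abundant transferases, had log2 fold changes of -0.17 (SE 0.30, adjusted p = 0.911) and -0.24 (SE 0.28, adjusted p = 0.842). The log2 fold changes of 9 of the 44 members changed sign when 1 library at a time was omitted. For Gsto1 the value was 0.087 without unchallenged control 3, so it has no settled direction.

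A few members were at higher levels with challenge. Gstp3, a pi-class paralogue, was at 2.66, 1.52 and 1.83 CPM in challenged Ctrl pools and 1.10, 0.613 and 0.525 CPM in unchallenged Ctrl pools (log2 fold change 1.42, SE 0.46, adjusted p = 0.216). Gstp2 was at 0.990, 1.30 and 2.05 CPM in challenged Ctrl pools and 0.837, 0.804 and 0.735 CPM in unchallenged Ctrl pools. In both genes the groups did not overlap, at levels close to 1 CPM. Aldh1a3, an enzyme that makes retinoic acid in epithelia, was at 471, 240 and 431 CPM in challenged Ctrl pools and 178, 240 and 273 CPM in unchallenged Ctrl pools (log2 fold change 0.73, SE 0.32, adjusted p = 0.395). Challenged control 2 was at the level of the unchallenged pools. Aldh3b2, a mouse enzyme of lipid droplets that acts on fatty aldehydes, was at 130, 155 and 242 CPM in challenged Ctrl pools and 87.2, 89.4 and 151 CPM in unchallenged Ctrl pools (log2 fold change 0.69, SE 0.31, adjusted p = 0.397). Its groups overlapped, but library by library each challenged pool was above the unchallenged pool of the same number. With the replicate block in these groups alone Aldh3b2 passed (adjusted p = 0.0331), but that fit was added after seeing the data. Its pairing also comes from the data, and the number of all genes it called is given at the end. Aldh3b2 did not pass with the block over all 9 libraries (adjusted p = 0.117) or by DESeq2 (adjusted p = 0.312).

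**Figure D2:**
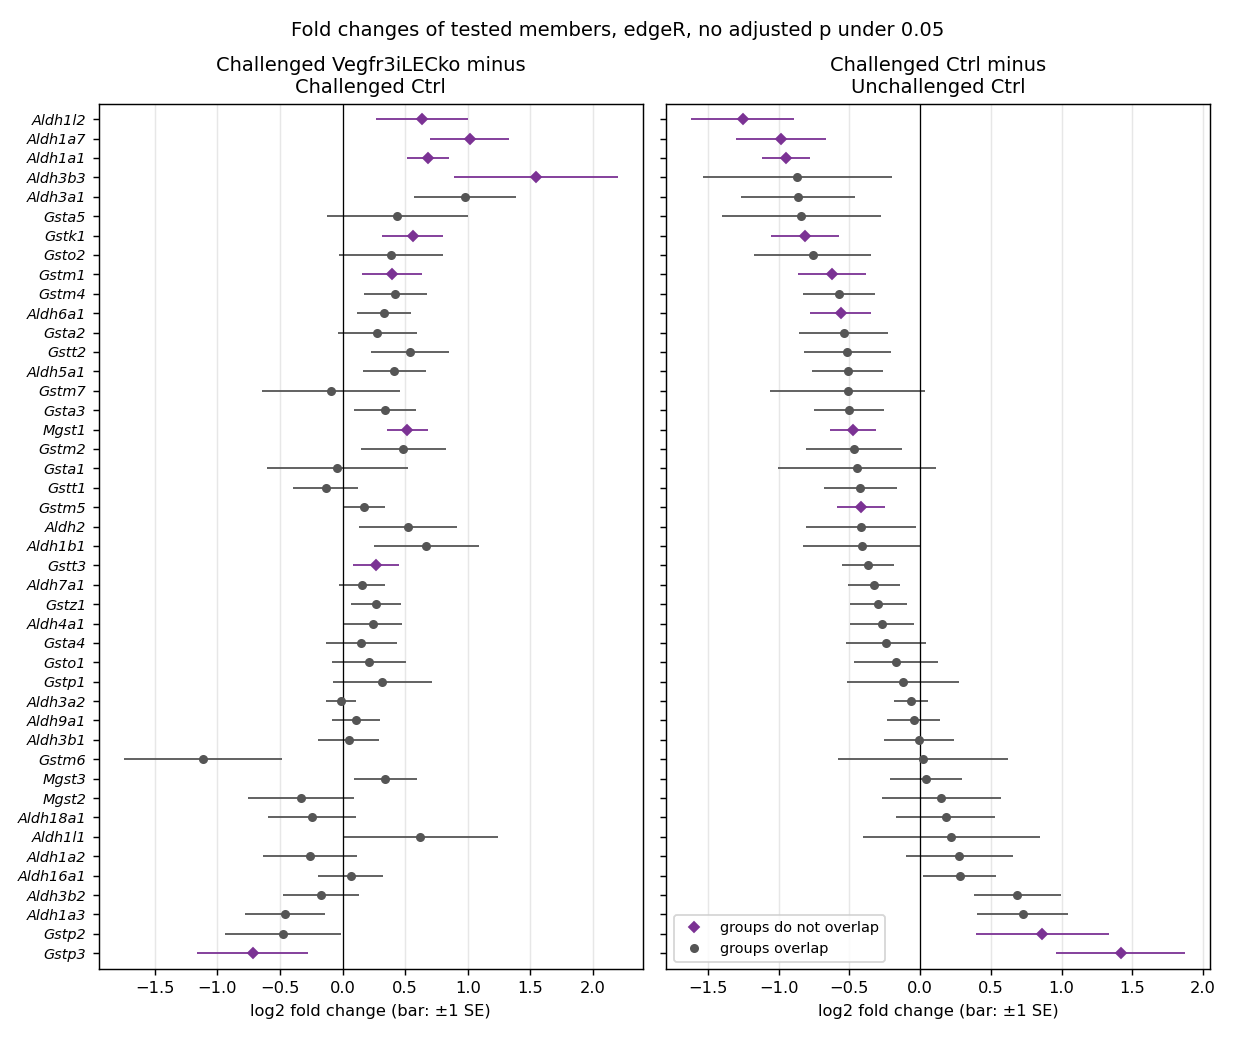
Log2 fold change (points) with 1 SE (bars) of the 44 tested members by edgeR, for challenged Vegfr3iLECko minus challenged Ctrl on the left and challenged Ctrl minus unchallenged Ctrl on the right, ordered by the right panel. Purple diamonds are members whose groups do not overlap. In the right panel 33 of 44 points lie below 0, and no point in either panel had an adjusted p under 0.05.

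Of 14 marker lists, the muscle, adipocyte and T cell sums are given here, and they differed between challenged Ctrl pools and the other groups. The conjunctival epithelium sum, at 26696 to 56021 CPM, overlapped between groups and was lowest in library 1 of each group. Muscle genes (17 of an 18-gene skeletal muscle list in the table, none at 0 in all libraries) summed to 2916 to 4310 CPM in challenged Vegfr3iLECko pools, 448 to 1358 CPM in challenged Ctrl pools and 2239 to 6994 CPM in unchallenged Ctrl pools. The 7 adipocyte genes summed to 33.7 to 54.8 CPM in challenged Vegfr3iLECko pools, 5.19 to 16 CPM in challenged Ctrl pools and 21.8 to 98.5 CPM in unchallenged Ctrl pools. In knockout pool 3 the defining adipocyte genes Adipoq, Plin1 and Cidec were at 0, and Plin4 made up most of the sum. Those genes and Cfd were lower there than in every challenged Ctrl pool, while Plin4 and Fabp4 were higher. The 11 T cell genes summed to 47.6 to 82.9 CPM in challenged Vegfr3iLECko pools, 212 to 387 CPM in challenged Ctrl pools and 18.8 to 31.7 CPM in unchallenged Ctrl pools. Muscle and adipocyte sums were thus lowest in the challenged Ctrl pools, though not every adipocyte gene was. Aldh1a1, Aldh1a7, Mgst1 and Gstk1 were also lowest there. Among the challenged Ctrl pools, challenged control 1 had the highest muscle and adipocyte sums (1358 and 16 CPM). It also had the lowest Aldh1a1, Aldh1a7 and Mgst1 and the highest Gstk1. The part of muscle and fat in those levels was not tested. In bulk tissue, fewer cells of a type and less RNA per cell cannot be told apart.

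Between challenged knockout and challenged control mice, more members were higher than lower in the knockout, and again no member passed over all genes in edgeR. The log2 fold change was above 0 for 32 of the 44 tested members and below 0 for 12, while 49.6% of all genes were below 0. It was above 0 for 15 of 21 soluble transferases, 2 of 3 membrane transferases and 15 of 20 aldehyde dehydrogenases. The median was 0.27 over the members and 0.00 over all genes, and 0.15 over the members without challenged control 1. No gene of the table passed an adjusted p of 0.05 (0% of 15613 genes), while at an unadjusted p under 0.05 there were 6 members higher and 0 lower (3.95% and 4.53% of all genes). By DESeq2 1 of 43 members passed (1.58% of all genes). In 8 members every knockout pool lay above every control pool, and in 1 below (6.7% and 6.24% of all genes). Both comparisons use the same challenged Ctrl pools, so a low value in those pools sets opposite signs in them.

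Aldh1a1 had the lowest unadjusted p here too, at 88.5, 79.6 and 112 CPM in challenged Vegfr3iLECko pools and 52.0, 65.0 and 57.5 CPM in challenged Ctrl pools. The knockout pools were higher by a log2 fold change of 0.68 (SE 0.17, adjusted p = 0.338). Leaving out each library in turn gave 0.53 to 0.79. By DESeq2 it was the member that passed (adjusted p = 0.0444). Aldh1a7 was at 8.95, 13.3 and 10.1 CPM in challenged Vegfr3iLECko pools and 3.77, 5.51 and 6.67 CPM in challenged Ctrl pools (log2 fold change 1.02, SE 0.32, adjusted p = 0.423). For both genes every knockout pool was above every control pool.

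Mgst1 was at 102, 85.8 and 111 CPM in challenged Vegfr3iLECko pools and 62.2, 74.3 and 72.2 CPM in challenged Ctrl pools (log2 fold change 0.52, SE 0.16, adjusted p = 0.431). Gstk1 was at 8.49, 7.08 and 6.75 CPM in challenged Vegfr3iLECko pools and 5.32, 5.15 and 4.68 CPM in challenged Ctrl pools (log2 fold change 0.56, SE 0.24, adjusted p = 0.571). The groups did not overlap for either gene. They did not overlap either for Aldh1l2, Gstm1, Gstt3 and Aldh3b3, of which Aldh3b3 stayed under 1 CPM in every library. Knockout pool 1 was the highest for Aldh1l2, Gstm1 and Aldh3b3.

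Aldh3a1 averaged 2635 ± 1003 CPM in challenged Vegfr3iLECko pools and 1337 ± 410 CPM in challenged Ctrl pools (SD, n = 3 pools each). On the log2 scale the difference was 0.98 (SE 0.41, adjusted p = 0.549). The groups overlapped, since knockout pool 1 lay below challenged control 3. Gstt2 was at 7.59, 7.14 and 11.8 CPM in challenged Vegfr3iLECko pools and 5.20, 5.33 and 7.70 CPM in challenged Ctrl pools (log2 fold change 0.54, SE 0.31, adjusted p = 0.678). Aldh1a3 was at 226, 400 and 205 CPM in challenged Vegfr3iLECko pools and 471, 240 and 431 CPM in challenged Ctrl pools (log2 fold change -0.46, SE 0.32, adjusted p = 0.723). Its groups overlapped, since knockout pool 2 was higher than challenged control 2. Gsto1 had a log2 fold change of 0.21 (SE 0.30, adjusted p = 0.847). Gstp3 was the member with every knockout pool lower, at 0.973, 1.47 and 1.20 CPM in challenged Vegfr3iLECko pools and 2.66, 1.52 and 1.83 CPM in challenged Ctrl pools.

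**Figure D3:**
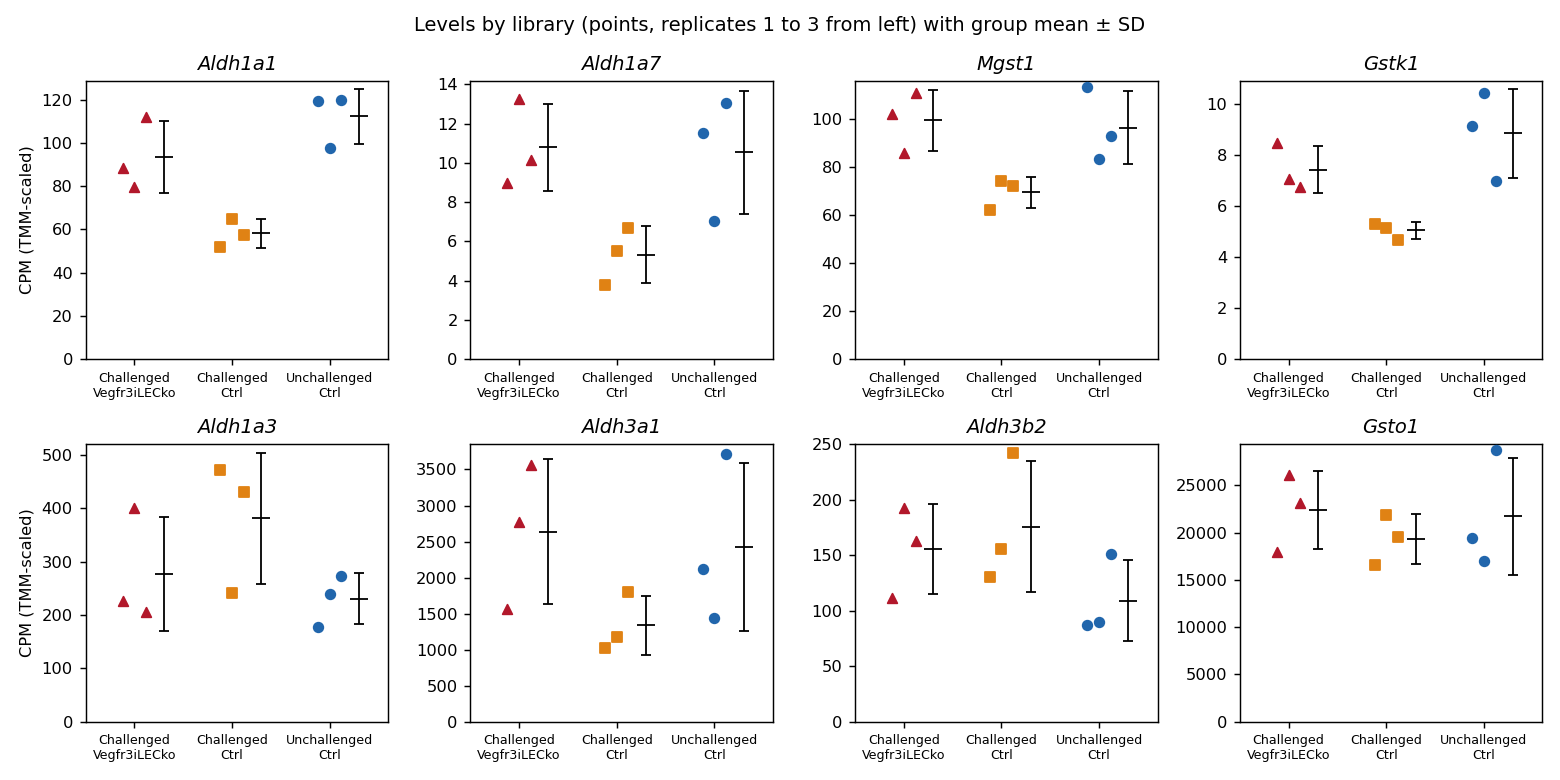
TMM-scaled CPM of 8 members in each library (points, replicates 1 to 3 from the left) with the mean and SD of each group of 3. Challenged Ctrl pools of Aldh1a1, Aldh1a7, Mgst1 and Gstk1 lie below all pools of the other groups, while Gsto1 overlaps, with means of 22357 CPM in challenged Vegfr3iLECko, 19321 CPM in challenged Ctrl and 21725 CPM in unchallenged Ctrl pools.

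Between challenged knockout mice and unchallenged control mice no member passed. The adjusted p was 0.999 for the member with the smallest value, and 0 of 44 members passed in edgeR (0% of all genes) or DESeq2 (0.089% of all genes). At an unadjusted p under 0.05 there were also 0 members (2.9% of all genes). The log2 fold change was below 0 for 24 members and above 0 for 20, with a median of -0.05 over the members and 0.00 over all genes. In 0 members was every knockout pool higher, and in 1, Gstm5, was every knockout pool lower (3.26% and 3.33% of all genes). Gstm5 was at 16.3, 13.4 and 14.6 CPM in challenged Vegfr3iLECko pools and 18.4, 17.1 and 17.2 CPM in unchallenged Ctrl pools.

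Gstt1 had the lowest unadjusted p of this comparison, at 17.9, 11.1 and 10.2 CPM in challenged Vegfr3iLECko pools and 23.4, 18.3 and 16.1 CPM in unchallenged Ctrl pools. Its difference was -0.56 on the log2 scale (SE 0.26, adjusted p = 0.999), with knockout pool 1 at the level of the unchallenged pools. Aldh1l2 had a log2 fold change of -0.62 (SE 0.36, adjusted p = 0.999), with means of 3.69 ± 0.915 CPM in challenged Vegfr3iLECko pools and 5.68 ± 2.16 CPM in unchallenged Ctrl pools (SD, n = 3 pools each). Aldh1a1 had one of -0.27 (SE 0.17, adjusted p = 0.999), with means of 93.4 ± 16.7 CPM in challenged Vegfr3iLECko pools and 112 ± 12.6 CPM in unchallenged Ctrl pools. The other members of low p were higher in the knockout, and their groups overlapped too. Aldh3b2 averaged 156 ± 40.7 CPM in challenged Vegfr3iLECko pools and 109 ± 36.2 CPM in unchallenged Ctrl pools (log2 fold change 0.51, SE 0.30, adjusted p = 0.999). Gstp3 averaged 1.22 ± 0.251 CPM in challenged Vegfr3iLECko pools and 0.745 ± 0.309 CPM in unchallenged Ctrl pools (log2 fold change 0.70, SE 0.46, adjusted p = 0.999). Mgst3 averaged 73.1 ± 19.7 CPM in challenged Vegfr3iLECko pools and 55.9 ± 11.1 CPM in unchallenged Ctrl pools (log2 fold change 0.39, SE 0.25, adjusted p = 0.999). An adjusted p this high does not show that the levels were equal.

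Ratios of related members within a library do not depend on its total count. The 5 ratios computed were chosen after the values were seen, and an exact two-sided permutation test of 3 against 3 cannot go below p = 0.1. The ratio of Aldh3b2 to Aldh3a1 counts was 0.0713, 0.0692 and 0.0458 in challenged Vegfr3iLECko libraries, 0.127, 0.132 and 0.134 in challenged Ctrl libraries and 0.0411, 0.0618 and 0.0406 in unchallenged Ctrl libraries. The challenged Ctrl libraries lay close together and above all others. The log2 difference was 1.48 with challenge and -1.10 for knockout against control under challenge (exact permutation p = 0.1 for each, adjusted p = 0.429 over 15 comparisons).

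The ratio of Aldh1a3 to Aldh1a1, both retinal-oxidising enzymes, was 2.56, 5.02 and 1.83 in challenged Vegfr3iLECko libraries, 9.07, 3.70 and 7.50 in challenged Ctrl libraries and 1.49, 2.45 and 2.28 in unchallenged Ctrl libraries. The log2 difference was 1.64 with challenge (exact permutation p = 0.1, adjusted p = 0.429) and -1.14 for knockout against control (exact permutation p = 0.2, adjusted p = 0.429). Control libraries did not overlap with challenge, while knockout pool 2 lay above challenged control 2. The ratio of Aldh1a1 to Aldh1a7 was 9.89, 6.00 and 11.1 in challenged Vegfr3iLECko libraries, 13.8, 11.8 and 8.62 in challenged Ctrl libraries and 10.4, 13.9 and 9.16 in unchallenged Ctrl libraries. These overlapped between all groups (log2 difference with challenge 0.03, exact permutation p = 1). The ratio of Gsta4 to Gsto1 was 0.108 to 0.159 over the 9 libraries. That of Gstp3 to Gstp1 was 0.0147 to 0.0230 in challenged Vegfr3iLECko, 0.0228 to 0.0799 in challenged Ctrl and 0.00658 to 0.0330 in unchallenged Ctrl libraries. Its groups overlapped, with a log2 difference of 1.59 with challenge and -1.06 for knockout against control (exact permutation p = 0.2 and adjusted p = 0.429 for each).

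**Figure D4:**
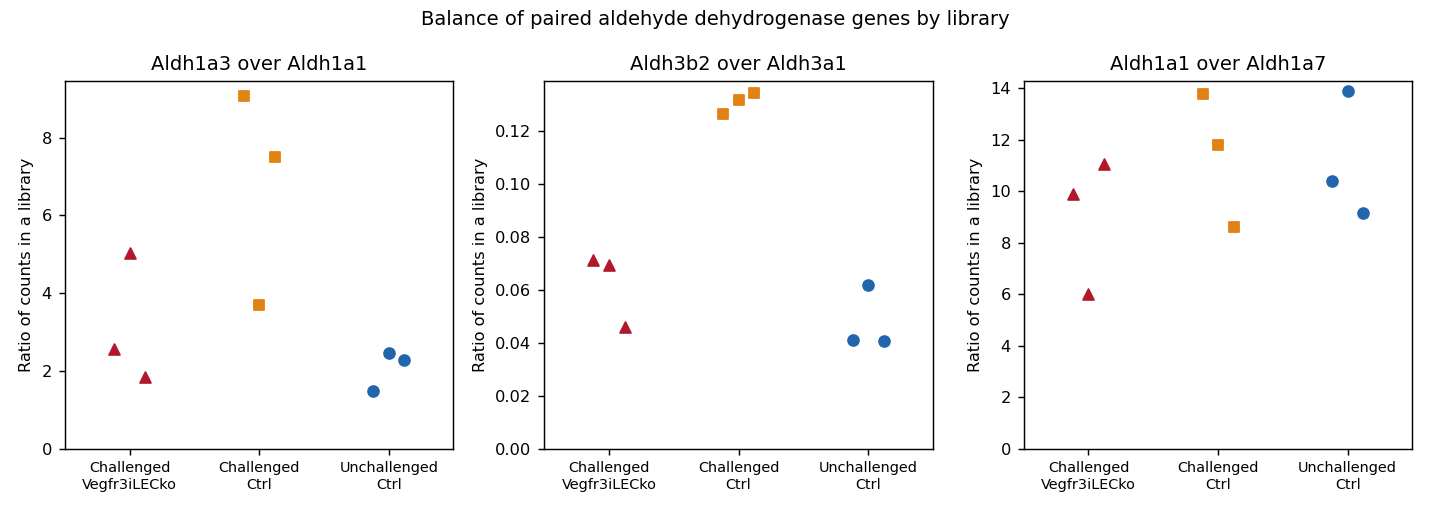
Ratio of the counts of related aldehyde dehydrogenase genes within each library (points), for Aldh1a3 over Aldh1a1, Aldh3b2 over Aldh3a1 and Aldh1a1 over Aldh1a7, with axes from 0. The ratio of Aldh3b2 to Aldh3a1 is 0.127 to 0.134 in challenged Ctrl libraries and at most 0.0713 in the others.

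Other genes of the same pathways were read from 5 lists, of which 0 members passed over all genes in edgeR or with the replicate block in any comparison. For glutathione synthesis and recycling (18 of 19 entries tested) the median log2 fold change was -0.05 with challenge and 0.13 for knockout against control under challenge. Over 6 glutathione peroxidases it was -0.39 and 0.09. Over 24 tested NRF2 regulators and targets it was -0.04 and 0.11, over 25 tested genes of the retinoid pathway 0.04 and 0.19, and over 10 superoxide and peroxide enzymes -0.07 and 0.05.

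Txnrd1, a thioredoxin reductase induced by NRF2, was at 117, 135 and 107 CPM in challenged Vegfr3iLECko pools, 313, 153 and 148 CPM in challenged Ctrl pools and 87.9, 108 and 123 CPM in unchallenged Ctrl pools. It was highest in every challenged Ctrl pool (log2 fold change with challenge 0.94, SE 0.28, adjusted p = 0.192), with challenged control 1 far above the rest. Nqo1, a quinone reductase and another NRF2 target, had a log2 fold change of -0.79 with challenge (SE 0.36, adjusted p = 0.406). Me1, the cytosolic malic enzyme, was at 41.0, 38.2 and 30.8 CPM in challenged Vegfr3iLECko pools and 7.98, 7.53 and 19.8 CPM in challenged Ctrl pools (log2 fold change 1.64, SE 0.44, adjusted p = 0.363). Lap3, a leucine aminopeptidase, had a log2 fold change of 1.56 with challenge (SE 0.37, adjusted p = 0.119). Dhrs9, a retinol-oxidising enzyme, had one of 3.12 (SE 1.06, adjusted p = 0.236), where challenged control 1 was at 10.3 CPM and the other challenged Ctrl pools at 1.75 and 1.03 CPM. Gpx3, the secreted glutathione peroxidase, had a log2 fold change of -1.12 with challenge (SE 0.57, adjusted p = 0.491) and 1.59 for knockout against control (SE 0.58, adjusted p = 0.497).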

How the data were processed

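Messenger RNA of pooled conjunctiva was sequenced. The values deposited by the authors are raw, whole-number counts for 20603 gene symbols in each of 9 libraries. HISAT2, Bowtie2, DESeq2 and build mm39 are named in the submitters' processing notes. The counting program, annotation and strand of the libraries were not given in the sources used, so reads of overlapping and antisense genes cannot be told apart. Since the annotation at hand is of another build, no mm39 coordinates are given, and those of the start regions are GRCm38.p6.

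Counts were scaled with TMM, filtered with filterByExpr (15613 genes left) and fitted with edgeR 4.0.16 (quasi-likelihood test, limma 3.58.1, R 4.3.3) over all 9 libraries, with group as the only term. The biological coefficient of variation was 31.7%. SE is the log2 fold change divided by the square root of the test's F. Adjusted p is Benjamini-Hochberg over all genes tested, with a threshold of 0.05, and tests were two-sided. Unless DESeq2 (1.42.0) or the block is named, adjusted p is from this fit. The floor of 3 counts covers counting error only, while SE and SD include the spread between pools. The lowest sum of any row was 2 counts. No library was a copy of another library of its group, and pairs across groups were not compared.

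Same-numbered libraries of challenged and unchallenged controls deviated together from their group means (correlations 0.480, 0.273 and 0.527). Only the fits with the replicate block take these libraries as paired. The reported fit and the permutation tests of ratios do not use the pairing. It comes from the data, not the labels. Alternatives were other scalings, no filter, DESeq2, the block, the groups of a contrast alone and each library left out.

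Members named with values were those past a threshold by any of 3 fits, the 6 of lowest p with a mean of at least 1 CPM in each contrast, and the 2 most abundant of each subfamily; list genes named were among those of lowest p in their list, and 1 such gene is not reported here. Values of other members, Krt4, Krt12, Krt13 and the adipocyte genes were chosen after they were seen. Members and lists were chosen with earlier results of these data known.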

Additional observations from a re-analysis of the deposited data

How the results depend on the processing

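The count of genes past the threshold with challenge in controls, 10 in the reported fit, was 20 without a count filter, 770 by DESeq2, 267 with the replicate block over all 9 libraries, 1 with only the groups of the contrast and 476 with the block in those groups (added after seeing the data). It was 0 to 121 when 1 library was left out. Members passing were 3 by DESeq2, 1 with the block and 2 with the block in those groups (Aldh1a1 and Aldh3b2), and 0 in each of the 9 fits that left out a library. The members' median log2 fold change was -0.44 to -0.17 in those fits, at -0.17 without challenged control 1. For knockout against control under challenge DESeq2 called 242 genes and 1 member, and the block 22 genes and 0 members. The median was 0.15 to 0.38 with 1 library left out. Replicate numbers are not shown to pair these groups (correlations 0.338, -0.168 and 0.353, with 3 of 6 libraries closest to their own number). For challenged knockout against unchallenged control DESeq2 called 14 genes. The median there was -0.11 to 0.04 with 1 library left out. The log2 fold change of Gsto1 with challenge was -0.32 to 0.087 with 1 library left out, above 0 without unchallenged control 3; the cause was not tested. Among the 25 fold changes of members that the text gives, no other changed sign under the alternatives: 392 values kept direction and side of the threshold and 7 came to pass, 4 by DESeq2 and 3 with a block. The block changed no other call of a member. Over all 44 tested members, the sign changed with at least 1 library left out for 9 with challenge, 12 for knockout against control and 22 for challenged knockout against unchallenged control. Depth limits Gstm3 and Aldh8a1, at or near the floor of 3 counts in most libraries.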
